A study of Mus musculus with 68 samples.

Results

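The genes described here are those whose level in the ovariectomized mouse uterus differed with loss of oestrogen receptor alpha (ERα, encoded by Esr1) when no hormone had been given. The members were selected on the measured vehicle values. One probe set was kept for each gene with a single symbol, the one with the highest mean over all 68 arrays, which left 30142 genes. A gene entered the up set when the mean of the vehicle-treated knockout arrays was at least 1 log2 unit (2-fold) above that of the vehicle-treated littermates in both knockout lines, and the down set when it was at least 1 log2 unit below in both. The rule gave 220 genes, 70 in the up set and 150 in the down set. In Ex3aERKO alone 282 genes lay at or above 1 and 439 at or below -1, and in ERaUtcKO alone 142 and 189 did. Because the vehicle arrays chose these genes, their vehicle differences are given as a description without a test. The tests below use hormone-treated arrays, or wild types from outside both lines, that had no part in the choice.

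ERα is a nuclear receptor that, once bound by oestradiol, attaches to oestrogen response elements in DNA or to other factors already on DNA, and raises some genes and lowers others. Without ligand it can still be reached by growth factor signals, and insulin-like growth factor 1 (IGF1), made by the uterine stroma after oestrogen, is one such signal. In the uterus ERα drives the early fluid uptake and the later wave of epithelial growth that follow an oestrogen dose, and uteri without it are small and do not grow in response.

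All mice were ovariectomized females on a C57Bl6 background, so ovarian hormone was removed in every group. Ex3aERKO mice carry a null Esr1 gene in all cells. ERaUtcKO mice are Esr1f/f;PgrCre+, so Esr1 is removed where the progesterone receptor promoter drives Cre, and cells that never express that receptor keep ERα. Each line came with wild-type littermates, and further C57Bl6 wild types formed a set of their own. Vehicle was saline, E2 was 250 ng oestradiol in saline, and both were injected into the peritoneum. IGF1 was 50 ug injected in PBS or came from an osmotic pump holding 0.5 mg/ml, and the labels do not tell which mouse had which. No group had PBS or a pump without IGF1. Each comparison of IGF1 with vehicle or with E2 therefore also spans the carrier and the way of delivery. Tissue was taken after 2 or 24 h, except that vehicle tissue was taken at 24 h only, so each comparison of a 2 h group with vehicle also spans that difference in time. Each group held 3 arrays, except 7 groups of 2. The 2-array groups were C57 IGF1 2 h, ERaUtcKO littermates at IGF1 2 h, Ex3aERKO littermates under vehicle, and Ex3aERKO knockouts under vehicle, E2 2 h, E2 24 h and IGF1 2 h.

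Values are log2 intensities of whole-uterus RNA, one array a sample. The median over genes ran from 6.93 to 7.10 in the C57 arrays, from 6.17 to 6.33 in the Ex3aERKO set and from 6.59 to 6.80 in the ERaUtcKO set, so levels are compared within a set only. Control probe sets of antigenomic sequence had medians of 4.32, 3.45 and 3.65 in the 3 sets. In these bulk samples a lower value from fewer cells of a type and a lower value from less RNA per cell cannot be told apart. Differences below are in log2 units with the standard error (SE) of a limma fit, and an adjusted p is limma's two-sided p after Benjamini-Hochberg adjustment over all 30142 genes, called under 0.05. The p-values measure the spread between the arrays of a group, and because the series' design text says outliers were removed after a principal component analysis, that spread may be understated in the 2-array groups.

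Under vehicle the up members lay above their littermates by a median of 1.90 in Ex3aERKO and 1.30 in ERaUtcKO, and the down members lay below by a median of -2.02 and -1.59. The medians over all genes were 0.02 and -0.05. The members closest inside the limit were Gnai1 (1.42 and 1.01) and Clcf1 (1.21 and 1.01) in the up set and Cxcl16 (-1.31 and -1.02) and Gli1 (-1.01 and -1.25) in the down set, with the Ex3aERKO difference first. Just outside lay Pde6h (1.00 and 1.62), Wls (1.82 and 0.99) and Trpc4 (-2.07 and -0.99). The up set was mostly protein-coding, with 58 such genes, 4 small RNAs and 8 long non-coding RNAs, pseudogenes or unlisted genes. The down set held 58 protein-coding genes, 65 immunoglobulin segments or chains, 19 small RNAs and 8 others. Among the immunoglobulin members 34 belonged to the Ighv1 family and 19 to the Igkv4 family. Segments of a family share sequence, so RNA of one may also bind the probes of another. A pair of Ighv1 members had the same value on every array. The pairs and families Bcl2a1a and Bcl2a1d, and Ifi204, Ifi207 and Ifi211, are uncertain for the same reason.

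The regulatory sequence of the members was examined because ERα binds a palindrome of half-sites. RefSeq windows of 300 bases around the start of a gene (GRCm38.p6) were searched. They covered 48 of the 70 up members, 48 of the 150 down members and 17970 of all genes. Windows of another length, and all windows of a chromosome that was left out, were not searched. The counts and shares below exclude them. The full palindrome GGTCANNNTGACC was in no window of either set and in 11 windows of all genes (0.061%). Its half-site, GGTCA or on the other strand TGACC, was in 22 up windows (45.8%), 18 down windows (37.5%) and 7691 windows of all genes (42.8%). At least 2 half-sites were in 9 up windows (18.8%), 3 down windows (6.25%) and 2096 of all (11.7%). The up windows of S100g, which encodes the calcium-binding protein calbindin-D9k, of Prap1, a secreted epithelial protein, and of Lifr, the receptor for leukaemia inhibitory factor, are printed as 3 of those 9, with half-sites in capitals. They lie at chrX:162964550-162964849 on the minus strand, chr7:140093146-140093445 on the plus strand and chr15:7140292-7140591 on the plus strand, and each spans the upstream flank and first bases of its gene.
S100g: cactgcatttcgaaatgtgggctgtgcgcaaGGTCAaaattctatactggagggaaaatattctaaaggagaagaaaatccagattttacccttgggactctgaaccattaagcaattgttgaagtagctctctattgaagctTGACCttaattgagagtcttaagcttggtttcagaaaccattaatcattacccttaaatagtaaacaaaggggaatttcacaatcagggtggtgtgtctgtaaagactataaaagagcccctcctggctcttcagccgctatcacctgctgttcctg
Prap1: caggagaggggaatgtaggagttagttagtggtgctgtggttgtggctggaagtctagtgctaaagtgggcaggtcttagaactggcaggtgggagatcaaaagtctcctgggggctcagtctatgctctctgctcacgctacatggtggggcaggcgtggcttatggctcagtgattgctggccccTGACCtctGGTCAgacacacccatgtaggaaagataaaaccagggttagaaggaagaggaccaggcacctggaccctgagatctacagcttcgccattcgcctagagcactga
Lifr: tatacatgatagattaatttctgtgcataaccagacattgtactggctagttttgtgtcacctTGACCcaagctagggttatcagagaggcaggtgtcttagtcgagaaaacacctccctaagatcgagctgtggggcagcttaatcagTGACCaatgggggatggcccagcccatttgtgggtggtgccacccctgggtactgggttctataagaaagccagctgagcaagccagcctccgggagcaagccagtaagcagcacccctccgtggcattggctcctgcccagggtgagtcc
In the Prap1 window the half-sites stood 3 bases apart in the everted order. A match of letters is a description and not a binding site. Hormone responses of these 3 genes are given below with the other members.

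MicroRNA genes among the up members were Mir681 and Mir3058, for which RefSeq lists 3 mature forms. They are printed with the seed (bases 2 to 8), the part that pairs with targets, in capitals.
mmu-miR-681: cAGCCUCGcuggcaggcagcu
mmu-miR-3058-3p: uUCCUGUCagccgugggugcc
mmu-miR-3058-5p: uCAGCCACggcuuaccuggaaga
No seed was shared. The Mir681 hairpin (chr12:69763835-69763944) lies within the coordinates of Cdkl1 (chr12:69745167-69791196), a protein kinase gene that was itself an up member. Over the 4 treatments Mir681 stood 2.20 ± 0.21 above littermates in Ex3aERKO and 2.25 ± 0.18 above in ERaUtcKO, and Cdkl1 stood 1.89 and 1.56 above. The array measures the transcribed region and not the processed microRNA.

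Esr1 itself was a down member. In treated arrays of the Ex3aERKO set it ranged from 11.44 to 12.38 in the 12 littermates and from 9.38 to 10.28 in the 9 knockouts. In the ERaUtcKO set it ranged from 11.66 to 12.39 in the 11 littermates and from 10.28 to 11.01 in the 12 knockouts. The groups did not overlap in either line. Averaged over the 4 treatments the knockouts were lower by -1.96 ± 0.09 (adjusted p = 2.6e-10) and by -1.45 ± 0.06 (adjusted p = 2.7e-12), and the drop was larger in Ex3aERKO by -0.51 ± 0.10 (adjusted p = 0.0041). One value summarises the transcript, and which of its probes lie in the deleted part was not used here, so the remaining signal does not measure remaining ERα.

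Almost all of the up members stayed above littermates in the hormone-treated knockouts. Over the mean of the 4 treatments 69 of 70 were called higher in Ex3aERKO, where 15.6% of all genes were, and 68 of 70 in ERaUtcKO, where 19.8% of all genes were. None was called lower. The median difference was 1.82 and 1.42, against 0.04 and 0.03 over all genes. Of the 150 down members 123 were called lower in Ex3aERKO (16.0% of all genes) and 136 in ERaUtcKO (22.4% of all genes), with medians of -1.60 and -1.48. One down member, the small RNA gene Gm24289, was called higher in Ex3aERKO. The same 68 up members and 117 down members were called in both lines. The share of all genes called in both lines was not counted. It cannot exceed the smaller share of a single line, 15.6% for higher and 16.0% for lower. Gm9522 in the up set, and Igkv6-25, Ighv3-8, an Igkv16 segment, Ighv1-78, Ighg2b, Sox4, Ptch1 and Cldn1 in the down set, were called in their vehicle direction in neither line.

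**Figure D1:**
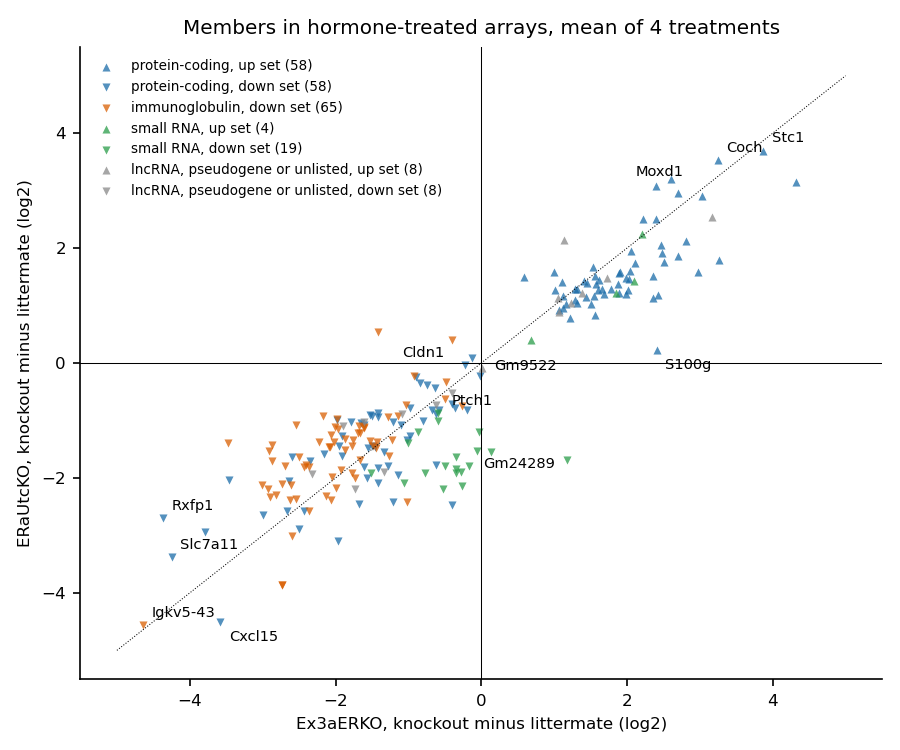
Knockout minus littermate difference (log2) of the 220 members in hormone-treated arrays, averaged over 4 treatments, with Ex3aERKO on the horizontal axis and ERaUtcKO on the vertical axis. Each point is a gene, coloured by class and shaped by set, and the dotted line marks equal differences. Up members lie above 0 in both lines except Gm9522 near the origin, while Ptch1, Cldn1 and Gm24289 lie apart from the other down members and S100g lies near 0 in ERaUtcKO only.

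Taken by treatment, the up members stood apart most under E2. In Ex3aERKO 63 were called higher at E2 2 h (10.3% of all genes, median 2.17) and 61 at E2 24 h (21.9%, median 2.21), against 48 at IGF1 2 h (1.4%, median 1.44) and 47 at IGF1 24 h (3.19%, median 1.18). In ERaUtcKO 64 were called higher at E2 2 h (13.8%, median 1.67), 64 at E2 24 h (24.9%, median 1.93), 52 at IGF1 2 h (2.42%, median 1.12) and 44 at IGF1 24 h (1.25%, median 0.93). Across all genes the medians for these comparisons lay between -0.02 and 0.13. One up member, Hpgds, was called lower, at IGF1 24 h in Ex3aERKO. The Ex3aERKO count at IGF1 2 h was 20 without the knockout array of replicate 2 and the ERaUtcKO count was 34 without the littermate array of replicate 2.

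The down members were called lower in smaller shares. In Ex3aERKO 45 of 150 were lower at E2 2 h (9.71% of all genes, median -1.15), 64 at E2 24 h (18.1%, median -1.39), 62 at IGF1 2 h (1.38%, median -1.66) and 94 at IGF1 24 h (3.46%, median -1.84). In ERaUtcKO 68 were lower at E2 2 h (13.5%, median -1.43), 102 at E2 24 h (22.4%, median -1.80), 64 at IGF1 2 h (3.38%, median -1.29) and 60 at IGF1 24 h (1.85%, median -1.39). The 58 protein-coding members contributed 32 to 37 of the lower calls per treatment in Ex3aERKO and 38 to 44 in ERaUtcKO, and the 65 immunoglobulin members 4 to 46 and 2 to 35. The Ex3aERKO count at IGF1 2 h was 33 without littermate replicate 1, 40 without littermate replicate 3 and 18 without knockout replicate 2, and the ERaUtcKO count was 37 without littermate replicate 2. Called in the vehicle direction in all 8 of these comparisons were 24 up members, among them Plag1, Cpxm2, Moxd1, Lgr5, Efhd1, Lifr, Hdc and the cell cycle gene Ccnd2, and 15 down members, among them Cxcl15, Slc7a11, Rxfp1, Akr1c14, Aldh1a1, Dio2, Esr1, Vldlr and Lamb1. No immunoglobulin member was. The share of all genes called in all 8 was not counted. It cannot exceed the share of the rarest single call, 1.25% for higher and 1.38% for lower. The counts of 24 and 15 members were 10 and 6 without the Ex3aERKO knockout array of replicate 2 at IGF1 2 h. They were 16 and 9 without Ex3aERKO littermate replicate 1 at IGF1 2 h, and the down count was 9 without littermate replicate 3.

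**Figure D2:**
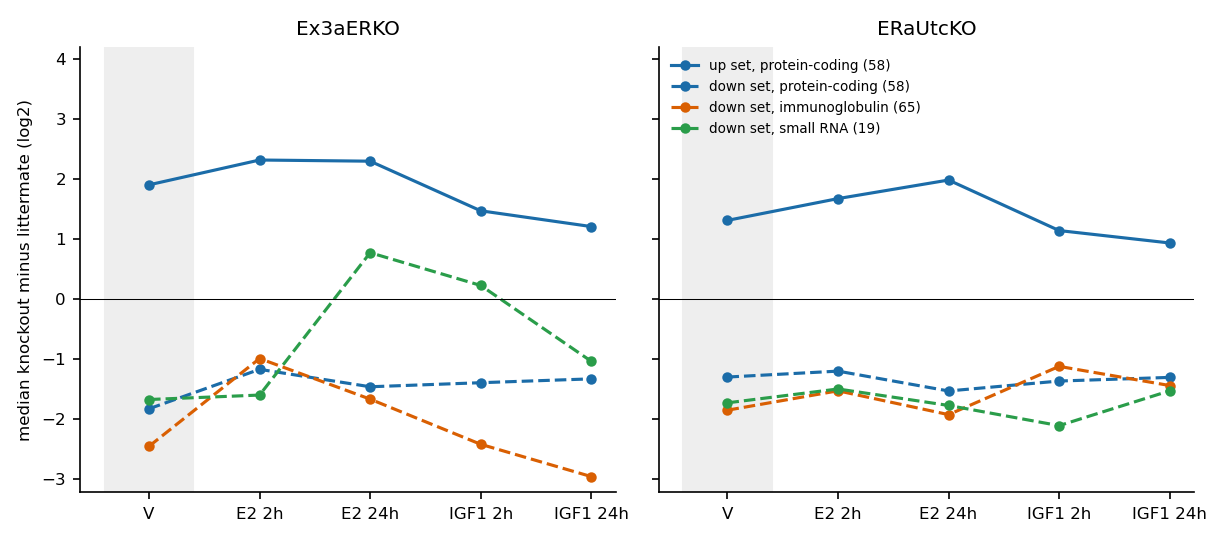
Median knockout minus littermate difference (log2, vertical axis) by treatment (horizontal axis) for protein-coding up members, and for protein-coding, immunoglobulin and small RNA down members, in Ex3aERKO (left) and ERaUtcKO (right). The grey band marks the vehicle arrays that chose the members, and the small RNA median in Ex3aERKO moves from -1.60 at E2 2 h to 0.77 at E2 24 h.

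Coch, an up member, encodes cochlin, an extracellular matrix protein best known from the inner ear. In Ex3aERKO at E2 24 h the littermates read 6.42, 6.46 and 6.99 and the knockouts 12.41 and 12.28. The ERaUtcKO littermates read 7.56, 7.88 and 7.53 and the knockouts 13.65, 12.57 and 12.34. Knockout and littermate values lay far apart in both lines, by 5.72 ± 0.30 (adjusted p = 4.8e-09) and 5.20 ± 0.27 (adjusted p = 6.2e-11). At IGF1 24 h the gap narrowed. The Ex3aERKO littermates then read 7.73, 8.06 and 7.88 and the knockouts 8.63, 8.56 and 8.86, a difference of 0.79 ± 0.27 that did not pass (adjusted p = 0.099), and the ERaUtcKO knockouts, at 9.67, 10.08 and 9.78, were 1.80 ± 0.27 above littermates (adjusted p = 0.00078). The genotype difference was larger after E2 than after IGF1 at 24 h by 4.93 ± 0.41 in Ex3aERKO (adjusted p = 1.5e-06) and 3.39 ± 0.39 in ERaUtcKO (adjusted p = 2.8e-06). In C57 wild types Coch fell from 11.20, 10.51 and 10.70 under vehicle to 7.66, 7.48 and 7.93 at E2 24 h (-3.12 ± 0.21, adjusted p = 4e-07) and fell by 2.49 at IGF1 24 h.

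Stc1 encodes stanniocalcin 1, a secreted glycoprotein hormone that acts on calcium and phosphate handling. In Ex3aERKO at E2 24 h the littermates read 7.56, 8.41 and 7.59 and the knockouts 13.79 and 14.33. In ERaUtcKO they read 7.70, 7.93 and 7.72 against 13.16, 13.81 and 13.12. The differences were 6.21 ± 0.43 (adjusted p = 6e-08) and 5.58 ± 0.42 (adjusted p = 3.3e-09), whereas at IGF1 24 h they were 1.32 ± 0.39 (adjusted p = 0.053) and 1.53 ± 0.42 (adjusted p = 0.052). At IGF1 24 h the littermates had risen to 11.42 to 11.57 and 11.22 to 11.45 and the knockouts lay between 12.46 and 13.06, so the groups still did not overlap. C57 wild types fell from 12.72, 12.61 and 11.97 under vehicle to 9.27, 9.24 and 9.17 at E2 2 h (-3.20 ± 0.19, adjusted p = 1e-07).

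Tgfbi encodes a matrix protein induced by transforming growth factor beta. It read 11.24, 11.23 and 11.27 in Ex3aERKO littermates and 17.46 and 17.88 in knockouts at E2 24 h, and 11.52, 11.43 and 11.03 against 17.15, 17.10 and 17.27 in the ERaUtcKO set. Knockouts lay far above littermates in both lines, by 6.42 ± 0.46 (adjusted p = 7.3e-08) and 5.85 ± 0.21 (adjusted p = 1.1e-12). At IGF1 24 h the difference was 0.74 ± 0.41 in Ex3aERKO (adjusted p = 0.37) and 1.36 ± 0.21 in ERaUtcKO (adjusted p = 0.00079). Tgfbi fell by 3.51 at E2 24 h in C57 wild types.

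Prap1, another up member, varied between arrays. At E2 2 h the Ex3aERKO littermates read 7.35, 9.57 and 7.18 and the knockouts 12.20 and 12.67, and the ERaUtcKO groups read 7.47, 7.16 and 7.17 against 10.90, 12.37 and 10.24. The groups did not overlap in either line, and the differences were 4.40 ± 1.05 (adjusted p = 0.0057, and 0.055 without knockout replicate 3) and 3.91 ± 0.57 (adjusted p = 3.1e-05). Averaged over treatments Prap1 was higher by 2.70 ± 0.51 in Ex3aERKO (adjusted p = 0.00068) and 1.86 ± 0.29 in ERaUtcKO (adjusted p = 4.7e-05). No C57 response of Prap1 passed.

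Among enzymes, Hpgds, the haematopoietic prostaglandin D synthase, was an up member whose genotype difference varied with the treatment. At E2 24 h the Ex3aERKO littermates read 7.36, 6.99 and 7.45 and the knockouts 12.63 and 12.52, and the ERaUtcKO littermates 8.30, 7.82 and 7.79 and the knockouts 12.29, 12.79 and 11.99. At IGF1 24 h the order turned, with littermates at 7.47, 8.68 and 7.89 and knockouts at 6.97, 6.65 and 6.78 in Ex3aERKO, and 8.28, 8.10 and 8.46 against 7.95, 7.67 and 7.30 in ERaUtcKO. At 24 h knockouts lay above all littermates after E2 and below all of them after IGF1. The differences at E2 24 h were 5.31 ± 0.29 and 4.38 ± 0.29, and those at IGF1 24 h -1.21 ± 0.26 (adjusted p = 0.011, and 0.057 without littermate replicate 2) and -0.64 ± 0.29 (adjusted p = 0.34). At 2 h this was not so. In ERaUtcKO Hpgds was higher in knockouts after E2, by 1.30 ± 0.29 (adjusted p = 0.0022), and after IGF1, by 1.29 ± 0.33 (adjusted p = 0.025, 0.25 without littermate replicate 2 and 0.072 without knockout replicate 2), and in Ex3aERKO the differences of -0.53 ± 0.29 and 0.44 ± 0.29 did not pass (adjusted p = 0.26 and 0.55). The change of the difference between hormones at 24 h was 6.52 ± 0.39 (adjusted p = 7.1e-08) and 5.02 ± 0.42 (adjusted p = 1.1e-07).

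Inmt encodes a methyltransferase acting on small indoles. It read 6.17, 6.20 and 6.21 in Ex3aERKO littermates and 12.25 and 12.40 in knockouts at E2 24 h, and 7.01, 6.86 and 6.06 against 14.43, 12.98 and 12.86 in the ERaUtcKO set. At IGF1 24 h knockouts read 8.34, 6.56 and 8.77 and littermates 7.73, 9.20 and 7.49 in Ex3aERKO, so the groups overlapped. The E2 24 h differences were 6.13 ± 0.74 (adjusted p = 8.9e-06) and 6.78 ± 0.50 (adjusted p = 3.2e-09), while those at IGF1 24 h, -0.25 ± 0.66 and 1.30 ± 0.50, did not pass (adjusted p = 0.9 and 0.22). In C57 wild types Inmt fell by 3.76 at E2 24 h and by 3.35 at IGF1 24 h. Moxd1, a copper-dependent monooxygenase, was higher by 2.40 ± 0.14 and 3.08 ± 0.08 over the 4 treatments, and Hdc, which makes histamine, by 2.43 ± 0.20 and 1.18 ± 0.15, with adjusted p of 4.4e-06 or less for both genes in both lines.

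**Figure D3:**
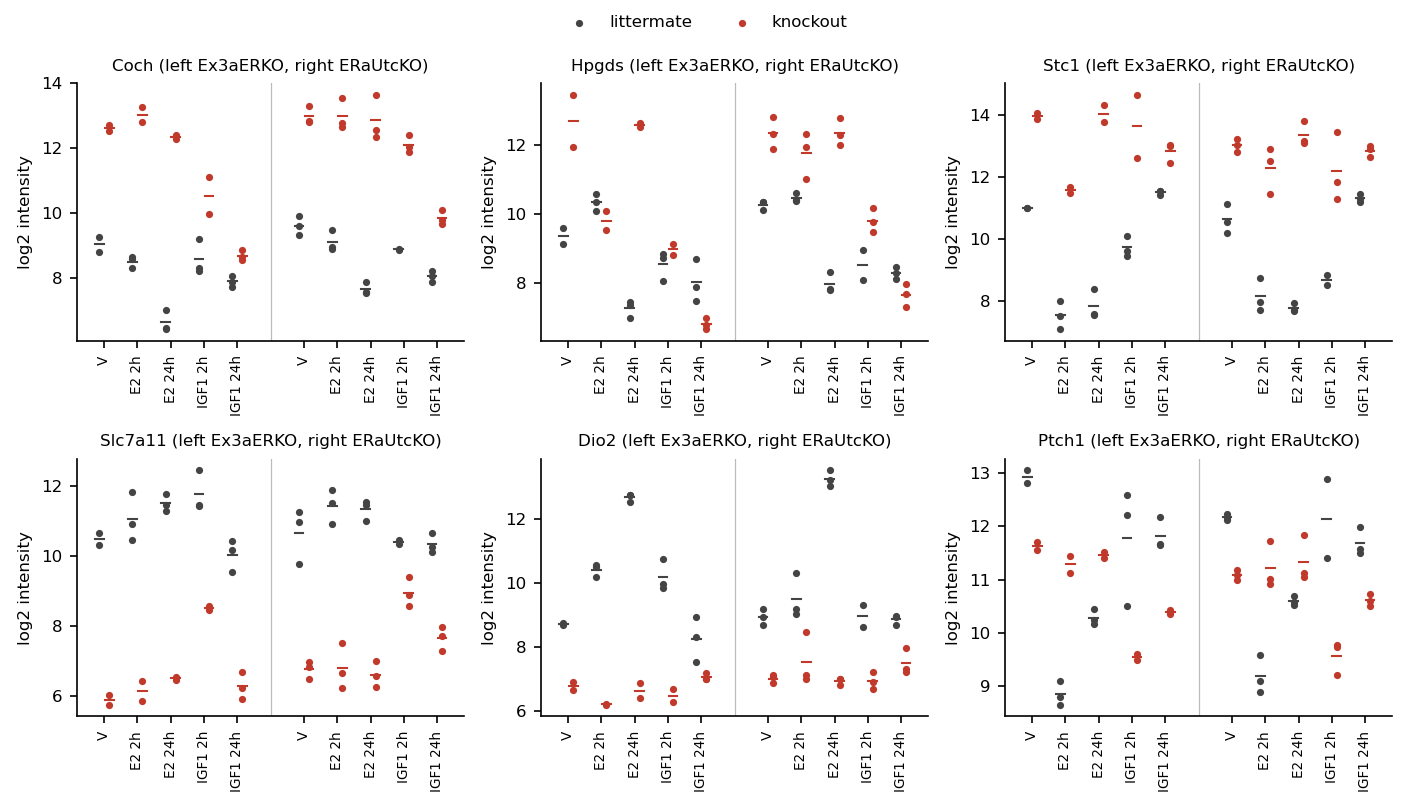
Log2 intensity (vertical axis) of 6 members on every array by treatment (horizontal axis), Ex3aERKO left and ERaUtcKO right of the grey line in each panel. Points are arrays, bars are group means, littermates are grey and knockouts red, and in the Ptch1 panel the knockouts lie below littermates under vehicle and IGF1 and above them at E2 2 h.

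Among receptors, Lgr5, a receptor for R-spondins that strengthens WNT signals, was higher in knockouts under every treatment. At E2 24 h it read 7.10, 7.54 and 7.18 in Ex3aERKO littermates and 11.19 and 11.00 in knockouts, and 7.06, 7.22 and 6.74 against 11.04, 11.57 and 11.84 in the ERaUtcKO set. The groups were more than 3 log2 units apart. Over the 4 treatments the difference was 2.70 ± 0.12 (adjusted p = 1.8e-10) and 2.96 ± 0.14 (adjusted p = 1.6e-11). Lifr was higher by 1.58 ± 0.13 and 1.37 ± 0.07, and at IGF1 2 h in Ex3aERKO its adjusted p of 0.0064 became 0.072 without knockout replicate 2. Cxcr4, the receptor for the chemokine CXCL12, was higher after E2 in both lines, by 2.51 ± 0.45 and 2.26 ± 0.29 at 2 h and 3.15 ± 0.45 and 2.45 ± 0.29 at 24 h. After IGF1 its differences, 1.48 and 0.36 at 2 h and -0.03 and 0.08 at 24 h, did not pass in either line. Lgr5 fell in C57 wild types at E2 2 h (-1.46 ± 0.20, adjusted p = 0.00011) and E2 24 h (-0.91 ± 0.20, adjusted p = 0.0031), and its smaller IGF1 differences of -0.75 and -0.65 (adjusted p = 0.03 and 0.031) were each lost without vehicle replicate 1 or 2 or IGF1 replicate 1 or 2 (adjusted p from 0.081 to 0.14 and from 0.084 to 0.11).

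Other up members act in transcription, in signalling or in muscle. Plag1, a zinc-finger transcription factor, was higher by 2.40 ± 0.12 over the treatments in Ex3aERKO and 2.51 ± 0.07 in ERaUtcKO (adjusted p = 1.3e-09 and 1.5e-14), and the difference was larger after E2 than after IGF1 by 1.64 to 1.75 at both times in both lines. Arrdc3, an arrestin-domain gene, at E2 2 h read 8.46, 8.97 and 8.88 in Ex3aERKO littermates and 12.39 and 12.51 in knockouts, and 8.89, 9.09 and 8.93 against 12.53, 13.06 and 12.90 in the ERaUtcKO set. At IGF1 2 h both genotypes were low, with ERaUtcKO littermates at 8.53 on both arrays and knockouts at 9.64, 9.46 and 8.84. The genotype difference was larger after E2 by 2.02 ± 0.32 in Ex3aERKO (adjusted p = 0.00059) and 3.07 ± 0.27 in ERaUtcKO (adjusted p = 2.4e-07). Tfcp2l1, an epithelial transcription factor gene, was higher by 2.01 ± 0.18 and 1.27 ± 0.11. Tnnt2, which encodes cardiac troponin T, was higher by 2.22 ± 0.32 and 2.51 ± 0.13 and, unlike most up members, rose in C57 wild types at IGF1 24 h, from 9.18, 9.39 and 8.93 under vehicle to 13.21, 12.36 and 11.91 (3.33 ± 0.27, adjusted p = 5.9e-06).

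In the down set, transporters and a gland chemokine were lower in knockouts over the treatments. Slc7a11 encodes the cystine and glutamate exchanger that feeds glutathione synthesis. It read 11.46, 11.79 and 11.28 in Ex3aERKO littermates and 6.45 and 6.53 in knockouts at E2 24 h, and 11.54, 11.01 and 11.45 against 6.26, 6.98 and 6.57 in ERaUtcKO. The highest values in treated knockouts were those at IGF1 2 h, 8.45 and 8.56 in Ex3aERKO and 8.56, 8.88 and 9.41 in ERaUtcKO, and still lay below all littermates. Over the treatments the differences were -4.25 ± 0.18 (adjusted p = 1.8e-10) and -3.37 ± 0.16 (adjusted p = 2e-11). At IGF1 2 h in ERaUtcKO the difference of -1.45 ± 0.34 (adjusted p = 0.017) was not called without littermate replicate 1 (0.11), littermate replicate 2 (0.069) or knockout replicate 1 (0.059). Cxcl15, a chemokine made by uterine glands, lay between 7.88 and 10.86 in treated Ex3aERKO littermates and between 5.20 and 7.41 in knockouts, and between 7.96 and 11.48 against 5.70 and 6.59 in ERaUtcKO. The groups did not overlap, and the differences were -3.58 ± 0.38 (adjusted p = 2.7e-06) and -4.51 ± 0.23 (adjusted p = 5.5e-11). Slc40a1, the iron exporter ferroportin, and Atp10b, a phospholipid flippase, were most different at E2 24 h, by -3.28 and -2.09 for Slc40a1 and by -3.72 and -3.29 for Atp10b.

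Dio2, a down member, encodes the deiodinase that activates thyroid hormone. At E2 24 h the Ex3aERKO littermates read 12.75, 12.53 and 12.76 and the knockouts 6.42 and 6.87, and the ERaUtcKO littermates 13.23, 13.52 and 13.05 and the knockouts 6.99, 6.81 and 7.02. Littermates and knockouts lay far apart in both lines. The differences were -6.04 ± 0.31 (adjusted p = 3.6e-09) and -6.33 ± 0.34 (adjusted p = 9.4e-11). They exceeded those at IGF1 24 h by -4.84 ± 0.42 (adjusted p = 1.9e-06) and -4.95 ± 0.49 (adjusted p = 5.8e-07). The IGF1 24 h differences were -1.20 (adjusted p = 0.015) and -1.38 (adjusted p = 0.032). The first was not called without littermate replicate 3, knockout replicate 1 or knockout replicate 3 (adjusted p from 0.053 to 0.069), and the second not without littermate replicate 1, 2 or 3 or knockout replicate 1 or 2 (0.07 to 0.11). Dio2 rose by 1.90 ± 0.23 at E2 24 h and fell by 1.38 at IGF1 24 h in C57 wild types.

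Akr1c14, a hydroxysteroid dehydrogenase, was lower by -5.55 ± 0.24 in Ex3aERKO and -2.41 ± 0.23 in ERaUtcKO at E2 2 h and by -3.47 ± 0.12 and -2.03 ± 0.12 over the treatments. Its Ex3aERKO knockout arrays all lay between 5.24 and 6.17, close together under every treatment, while ERaUtcKO knockouts lay between 6.38 and 8.95. Aldh1a1, which makes retinoic acid, was lower by -2.35 ± 0.27 and -1.71 ± 0.16. Rxfp1, the relaxin receptor, lay between 11.55 and 13.35 in treated Ex3aERKO littermates and between 7.48 and 9.11 in knockouts, and between 12.50 and 14.10 against 9.26 and 11.44 in ERaUtcKO. Its differences of -4.37 ± 0.10 (adjusted p = 6.1e-14) and -2.70 ± 0.12 (adjusted p = 6.7e-12) did not depend detectably on the hormone, the contrasts of E2 and IGF1 lying between -0.45 and 0.49.

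A few down members were called above littermates at E2 2 h, a smaller share than the 10.3% of all genes in Ex3aERKO and 13.8% in ERaUtcKO called higher there. In this direction 4 of 150 down members were called in Ex3aERKO (an Igkv16 segment, Sox4, Ptch1 and Cldn1) and 4 in ERaUtcKO (Trim45, Sox4, Ptch1 and Cldn1). At E2 24 h Ptch1, Gm24289 and Snord89 were called higher in Ex3aERKO (Ptch1 not without littermate replicate 1 or 3 or knockout replicate 1 or 3, adjusted p from 0.054 to 0.11) and Gkn3, Cldn1 and 4930523C07Rik in ERaUtcKO, where 21.9% and 24.9% of all genes were. Ptch1 encodes the hedgehog receptor and is itself raised by hedgehog signals. At E2 2 h the Ex3aERKO littermates read 8.65, 9.09 and 8.79 and the knockouts 11.45 and 11.13, and the ERaUtcKO littermates 8.89, 9.09 and 9.59 and the knockouts 10.91, 11.72 and 11.01. The littermates read 12.21, 10.51 and 12.60 and the knockouts 9.48 and 9.60 at IGF1 2 h in Ex3aERKO, and 11.40 and 12.89 against 9.20, 9.76 and 9.74 in ERaUtcKO. Knockouts were above every littermate after E2 and below every littermate after IGF1. The differences were 2.45 ± 0.39 (adjusted p = 0.0002) and 2.03 ± 0.31 (adjusted p = 4.2e-05) for E2, and -2.23 ± 0.39 (adjusted p = 0.0045) and -2.58 ± 0.34 (adjusted p = 0.00012) for IGF1. C57 wild types fell from 13.33, 12.96 and 13.06 under vehicle to 9.65, 9.69 and 9.57 at E2 2 h (-3.48 ± 0.10, adjusted p = 3.9e-10).

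Cldn1, a tight junction protein, and Sox4, a developmental transcription factor, gave the same pair of signs. Cldn1 at E2 2 h was 2.78 ± 0.71 higher in Ex3aERKO knockouts (adjusted p = 0.0089, and 0.068 without knockout replicate 3) and 2.25 ± 0.33 higher in ERaUtcKO (adjusted p = 2.8e-05). Its differences at IGF1 2 h were -2.41 ± 0.71 (adjusted p = 0.084) and -2.31 ± 0.37 (adjusted p = 0.00072). In Ex3aERKO the littermates at IGF1 2 h were spread widely, at 9.61, 7.94 and 11.83, and the knockouts read 7.92 and 6.85. Sox4 at E2 2 h was higher by 1.54 ± 0.24 (adjusted p = 0.00017) and 1.93 ± 0.20 (adjusted p = 6.4e-07). At IGF1 2 h it was lower by -1.07 ± 0.24 (adjusted p = 0.023) and -0.99 ± 0.23 (adjusted p = 0.013), calls lost in Ex3aERKO without littermate replicate 1 or 3 or knockout replicate 1 or 2 (adjusted p from 0.054 to 0.14) and in ERaUtcKO without littermate replicate 1 or 2 (0.085 and 0.066). In C57 wild types E2 at 2 h lowered Cldn1 by -3.96 ± 0.25 and Sox4 by -3.25 ± 0.10. Gli1, a hedgehog effector and target, was lower over the treatments by -0.58 and -0.82.

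Twist2 and Mki67 lay far below littermates at the time of their highest wild-type levels. Twist2, a mesenchymal transcription factor, at E2 2 h read 11.56, 10.15 and 10.80 in Ex3aERKO littermates and 6.49 and 5.91 in knockouts, and 11.47, 10.93 and 11.28 against 7.14, 7.15 and 7.13 in ERaUtcKO, with differences of -4.63 ± 0.42 (adjusted p = 6.3e-07) and -4.09 ± 0.27 (adjusted p = 2e-09). At IGF1 2 h the knockouts read 8.72 and 7.37, and 8.78, 9.08 and 8.11, and the differences of -1.35 (adjusted p = 0.11) and -0.49 (adjusted p = 0.43) did not pass. Mki67, the cell proliferation marker, at E2 24 h read 12.41, 13.12 and 12.89 in Ex3aERKO littermates and 6.58 and 6.37 in knockouts, and 12.82, 12.33 and 12.35 against 5.78, 7.02 and 6.41 in ERaUtcKO. Mki67 was lower by -6.33 ± 0.68 (adjusted p = 2.6e-06) and -6.10 ± 0.53 (adjusted p = 2.1e-08). At IGF1 24 h the knockouts were scattered, at 8.25, 10.69 and 8.38 and at 6.88, 9.18 and 8.31. The differences there were -1.41 ± 0.60 (adjusted p = 0.2) and -2.64 ± 0.53 (adjusted p = 0.0065). In C57 wild types Twist2 rose by 3.83 ± 0.22 at E2 2 h and 2.59 ± 0.25 at IGF1 2 h, and Mki67 by 3.51 ± 0.33 at E2 24 h and 2.62 ± 0.33 at IGF1 24 h.

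Matrix and signalling members were lower by smaller amounts over the treatments, Tnc (tenascin C) by -1.50 and -0.91, the homeobox gene Msx2 by -1.28 and -1.79, and Sfrp4, a secreted WNT antagonist, by -0.68 and -0.82. Rasgrf1, an exchange factor for Ras, was lower by -0.98 and -0.78, with differences of 0.01 and 0.06 at E2 24 h. Lyz2, the lysozyme of macrophages, was lower by -1.79 and -1.02, and after quantile normalization its ERaUtcKO difference was -0.69 (adjusted p = 0.074).

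The 65 immunoglobulin members were lower in knockouts by a median of -2.01 over the treatments in Ex3aERKO, where 59 were called (16.0% of all genes). In ERaUtcKO the median was -1.47, and 55 were called (22.4% of all genes). They are not independent measurements, since segments share sequence, and their deviations from group means had a median pairwise correlation of 0.302 over the 44 treated arrays of both lines. The median over the 65 on each array ran from 7.55 to 9.74 in treated Ex3aERKO littermates and from 5.85 to 7.52 in treated knockouts, meeting closest at E2 2 h (7.70 to 8.65 against 7.25 to 7.52). In ERaUtcKO the groups overlapped at IGF1 2 h (8.23 to 9.74 against 6.64 to 8.35) and IGF1 24 h (8.80 to 9.85 against 6.68 to 9.15). At E2 2 h, E2 24 h, IGF1 2 h and IGF1 24 h, 4, 24, 25 and 46 of 65 were called lower in Ex3aERKO, against 9.71%, 18.1%, 1.38% and 3.46% of all genes, and 13, 35, 4 and 2 in ERaUtcKO, against 13.5%, 22.4%, 3.38% and 1.85%. The count at E2 2 h in Ex3aERKO was a smaller share than that of all genes, and that at IGF1 24 h in ERaUtcKO was near it. Igkv5-43 was lower by -4.64 ± 0.75 (adjusted p = 0.00017) and -4.57 ± 0.59 (adjusted p = 5.3e-06), Igkv4-61 by -2.36 and -2.58, and Ighv1-55 by -2.92 in Ex3aERKO and -1.54 in ERaUtcKO, where it did not pass (adjusted p = 0.063).

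**Figure D4:**
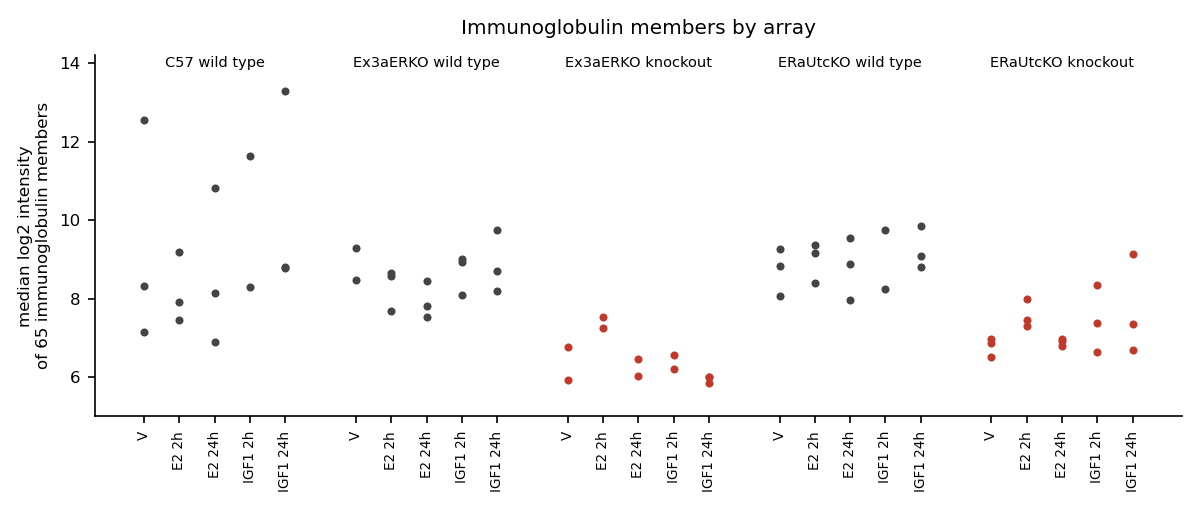
Median log2 intensity of the 65 immunoglobulin members (vertical axis) on each array by treatment, for C57 wild types and for wild types (grey) and knockouts (red) of both lines. Values in Ex3aERKO knockouts end at 7.52, while C57 arrays under vehicle span 7.15 to 12.5.

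Jchain, which joins antibody chains into dimers and pentamers, was a down member too. It read 10.23, 11.09 and 9.69 in Ex3aERKO littermates and 8.95 and 9.67 in knockouts at E2 2 h, and 10.87, 10.26 and 10.37 against 6.45, 7.55 and 6.80 at IGF1 24 h. The groups nearly touched under E2 2 h and lay far apart under IGF1 24 h. Over the treatments Jchain was lower by -2.64 ± 0.21 (adjusted p = 1.2e-07) and -2.06 ± 0.34 (adjusted p = 8.2e-05). The other measured B cell genes of the list were not called in Ex3aERKO. Over vehicle and treated arrays together Cd79a had a median of 5.57 in littermates and 5.75 in knockouts, and Ms4a1 of 5.19 and 5.29. Pax5 had medians of 5.14 and 5.16 and Mzb1 of 5.44 and 5.23. These levels lay above the antigenomic median of 3.45 in this set and below its array medians over genes, 6.17 to 6.33. Cd79b ran from 5.56 to 7.52 in littermates and from 5.61 to 6.13 in knockouts, a treated difference of -0.25 ± 0.11 (adjusted p = 0.093, and 0.0076 without the littermate array of replicate 1 at E2 24 h). Ighm, the constant region of the IgM heavy chain and no member, was well above them, with medians of 8.14 in littermates and 8.53 in knockouts of Ex3aERKO and 10.1 and 11.1 in ERaUtcKO. Over the treatments its difference was 0.10 ± 0.40 in Ex3aERKO (adjusted p = 0.87), and in ERaUtcKO it was higher in knockouts by 1.84 ± 0.57 (adjusted p = 0.014, and 0.055 without the littermate array of replicate 2 at IGF1 2 h), the opposite sign to the immunoglobulin members. Of 7 measured genes of the B cell and plasma cell list 1 was called lower (16.0% of all genes) and none higher (15.6%) in Ex3aERKO. In ERaUtcKO 1 was called lower (22.4%) and 4 higher (19.8%). Besides Ighm these 4 were Cd79a (0.21 ± 0.08, adjusted p = 0.041), Ms4a1 (0.28 ± 0.08, adjusted p = 0.012) and Pax5 (0.12 ± 0.04, adjusted p = 0.012). With single arrays left out the Cd79a call was lost in 13 of 23 fits and the Ms4a1 call in 1. The part of this list in the immunoglobulin result was not tested. In C57 wild types no immunoglobulin member was called under any of the 4 treatments, and the spread between arrays there was wide.

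The 19 small RNA down members, which RefSeq annotates mostly as small nucleolar RNAs, guides of ribosomal RNA modification, differed between the lines. In ERaUtcKO all 19 were called lower over the treatments (22.4% of all genes), with a median of -1.79. In Ex3aERKO 5 were called lower (16.0% of all genes) and 1 higher (15.6%), with a median of -0.35. At E2 24 h the median difference was 0.77 in Ex3aERKO and -1.78 in ERaUtcKO. Their median level was 8.66 to 9.66 in vehicle-treated Ex3aERKO knockouts, against 10.2 to 11.2 in littermates, and 9.19 to 11.4 in treated knockouts. The contrast of the lines was positive for 19 of 19, with a median of 1.30, and passed for 4 (1.99% of all genes). Gm24289 stood apart, at 11.29 and 10.44 in Ex3aERKO knockouts at E2 24 h against 7.33, 8.38 and 8.78 in littermates, and was lower in ERaUtcKO (-1.68 ± 0.26, adjusted p = 3.1e-05), a contrast of 2.85 ± 0.44 (adjusted p = 0.00027).

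Whether the genotype difference depended on the hormone, as given with its carrier and delivery, was tested at the same time point. The test was the difference after E2 minus that after IGF1. Among up members the difference was larger after E2 for 16 and smaller for 2 at 2 h in Ex3aERKO, against 4.53% and 4.95% of all genes, and for 36 and 1 at 24 h, against 10.9% and 14.5%. In ERaUtcKO it was larger for 19 and smaller for 5 at 2 h (8.88% and 8.15% of all genes) and larger for 44 and smaller for 2 at 24 h (13.2% and 16.1%). The medians at 24 h were 1.15 and 0.98. Of the 150 down members the contrast was called positive for 14 and negative for 6 at 2 h in Ex3aERKO, for 12 and 17 at 24 h, for 14 and 8 at 2 h in ERaUtcKO and for 10 and 16 at 24 h, to be read against the same shares of all genes. Most were not called, and called or not 102, 117, 91 and 51 of the 150 had a positive value. The called positive contrasts at 2 h include Ptch1 (4.68 ± 0.55 and 4.60 ± 0.46), Cldn1 (5.19 ± 1.00 and 4.55 ± 0.49) and Sox4 (2.61 ± 0.34 and 2.92 ± 0.31), and the called negative ones at 24 h Dio2 and Mki67.

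The size of the genotype difference in treated arrays was compared between the lines. Of the 70 up members 12 were called with a larger difference in Ex3aERKO and 3 with a smaller one, where the contrast was called positive for 1.99% and negative for 1.45% of all genes. Of the 150 down members 7 contrasts were called positive and 10 negative, and called or not 65 were positive and 85 negative. S100g, an up member, differed between the lines. In Ex3aERKO at E2 2 h it read 12.46, 12.40 and 12.65 in littermates and 15.28 and 16.33 in knockouts, and in ERaUtcKO 13.19, 12.18 and 11.71 against 13.03, 13.23 and 12.90. The first pair of groups lay apart and the second overlapped. Over the treatments S100g was higher by 2.41 ± 0.23 in Ex3aERKO (adjusted p = 7.9e-07), its difference in ERaUtcKO was 0.23 ± 0.21 (adjusted p = 0.4), and the contrast was 2.18 ± 0.32 (adjusted p = 0.0002). Efhd1, a mitochondrial calcium-binding protein gene, was higher by 3.26 ± 0.18 and 1.80 ± 0.15, a contrast of 1.46 ± 0.24 (adjusted p = 0.00057), and Hdc had a contrast of 1.25 ± 0.26 (adjusted p = 0.0053). In the down set Rxfp1 was lower in Ex3aERKO by a further -1.67 ± 0.16 (adjusted p = 1.5e-07) and Akr1c14 by -1.43 ± 0.17 (adjusted p = 6.6e-06). The lines also differ in array level and in which cells keep ERα, which cannot be told apart from a difference in the effect of losing it.

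The hormone responses of the members against their own vehicle arrays are given as a description, since those arrays chose the members. In knockouts the up members stayed near their vehicle level after E2, with median responses of -0.33 at 2 h and 0.01 at 24 h in Ex3aERKO and -0.00 and 0.09 in ERaUtcKO. After IGF1 they moved down, by medians of -0.73 and -0.71 in Ex3aERKO and -0.63 and -0.64 in ERaUtcKO, with 26 and 23 members at -1 or below in the first line and 21 and 20 in the second. Coch at 24 h shows this, with responses of -0.28 and -0.13 to E2 and -3.94 and -3.14 to IGF1, and so does Inmt, at -5.36 and -4.39 for IGF1. In littermates the up members' median responses to E2 were -0.46 and -0.38 in the Ex3aERKO set and -0.40 and -0.63 in the ERaUtcKO set, and to IGF1 -0.12 and 0.07, and -0.27 and -0.20. The down members of the knockouts had medians of 0.73 and 0.15 for E2 and 0.01 and -0.00 for IGF1 in Ex3aERKO, where 55 lay at 1 or above at E2 2 h, 35 of them immunoglobulin and 11 small RNA members. In ERaUtcKO the medians were 0.32, -0.02, 0.32 and 0.38 in the same order, with 35 at 1 or above at IGF1 24 h, 28 of them immunoglobulin members.

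C57 wild types, which had no part in choosing the members, gave hormone minus vehicle differences of the same genes with ERα present. More up members fell than rose under each hormone. At E2 2 h 40 of 70 fell (16.1% of all genes) and 4 rose (13.5%), and at E2 24 h 37 fell (16.6%) and 6 rose (19.6%). At IGF1 2 h 23 fell (11.1%) and 4 rose (11.7%), and at IGF1 24 h 27 fell (11.5%) and 5 rose (14.4%). The medians were -0.51, -0.42, -0.31 and -0.29. The number that rose at IGF1 2 h was 2 without the array of replicate 1. Arrdc3 fell by 2.44 at E2 2 h and by 3.06 at IGF1 2 h, and Cxcr4 fell by 3.20 at E2 2 h. Of the 150 down members 24 fell and 10 rose at E2 2 h, and 42 and 14 at E2 24 h. At IGF1 2 h 12 fell and 4 rose, and at IGF1 24 h 36 and 6, to be read against the same shares of all genes. The count that fell was near the share of all genes at E2 2 h (16.1%) and below it at IGF1 2 h (11.1%). The counts that rose were below the share of all genes under every treatment. These shares of the 150 include the 65 immunoglobulin members, of which none was called. Of the 58 protein-coding down members 21 fell and 7 rose at E2 2 h, and 27 and 12 at E2 24 h. At IGF1 2 h 11 of the 58 fell and 4 rose, and at IGF1 24 h 22 and 5. In C57 the small RNA members fell at 24 h, 12 of 19 after E2 (16.6% of all genes, median -1.22) and 13 after IGF1 (11.5%, median -1.06). Littermates, described against the vehicle arrays that chose the members, did not show a fall of this size. Their small RNA medians after E2 and IGF1 at 24 h were 0.26 and 0.75 in the Ex3aERKO set and -0.36 and -0.37 in the ERaUtcKO set.

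**Figure D5:**
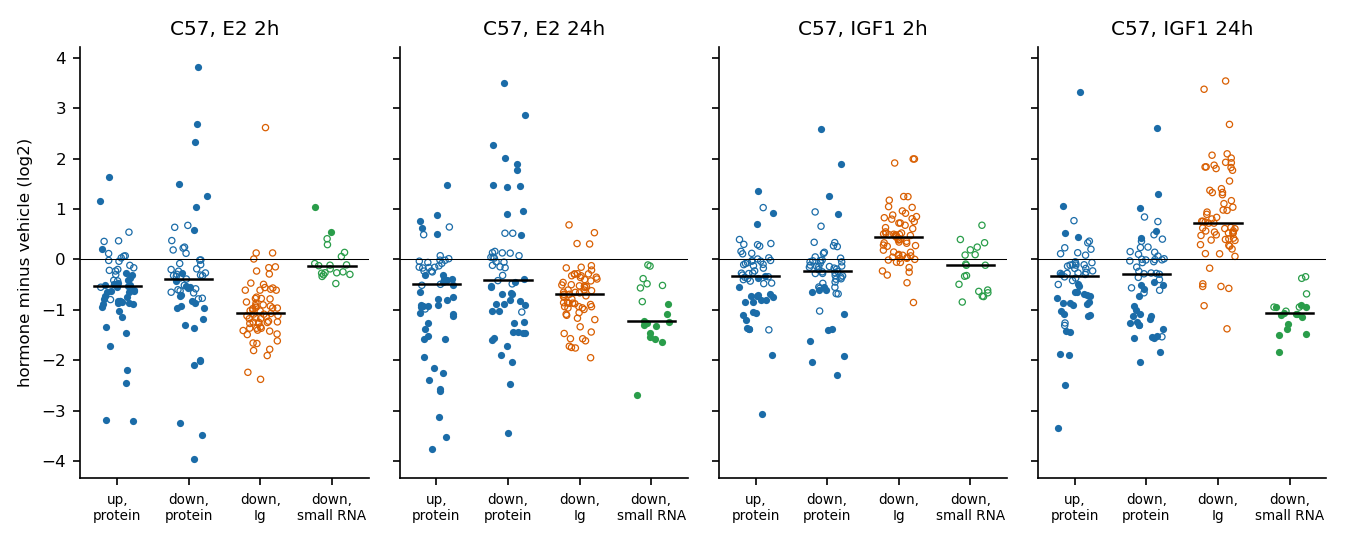
Hormone minus vehicle difference (log2, vertical axis) in C57 wild types for protein-coding up members and protein-coding, immunoglobulin and small RNA down members, 1 panel per treatment. Filled points passed limma at adjusted p under 0.05, open points did not, black bars are medians, and no immunoglobulin point is filled.

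Genes of related pathways, few of them members, were counted over the treatments from lists drawn up for this tissue, and the counts are to be read against the 15.6% of all genes called higher and 16.0% lower in Ex3aERKO and the 19.8% and 22.4% in ERaUtcKO. In a list of 20 genes induced early by oestradiol, none of them a member, 19 were called lower in Ex3aERKO (median -1.06) and 18 in ERaUtcKO (median -1.09). In the proliferation list, which holds Mki67, 18 of 19 were lower in Ex3aERKO (median -1.19) and 19 of 19 in ERaUtcKO (median -1.24). The vehicle medians of those lists were between -0.24 and -0.15. The treated arrays include the E2 groups, and the lists were chosen with earlier results of these data known. Genes listed because oestradiol induces them could hardly come out otherwise in knockouts. The counts of these lists are therefore a description and no independent test. Of 23 oestrogen receptor pathway genes, with Esr1, 3 were higher and 10 lower in Ex3aERKO and 3 and 14 in ERaUtcKO. Late secretory oestradiol targets, with Prap1 and Lyz2, had 2 higher and 7 lower of 15, and 2 and 12. Progesterone and stromal genes, with Ptch1 and Gli1, had 6 higher and 4 lower of 14, and 5 and 5. The IGF axis, with Stc1, had 5 higher and 4 lower of 16, and 9 and 5. WNT genes, with Lgr5 and Sfrp4, had 8 higher and 5 lower of 24, and 8 and 4. Retinoid and steroid enzymes, with Inmt, Aldh1a1 and Akr1c14, had 7 higher and 10 lower of 21, and 5 and 10. Matrix genes, with Tnc, had 3 higher and 20 lower of 30, and 7 and 12, and androgen targets 1 higher and 2 lower of 6, and 1 and 3.

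Markers of the cell types of the tissue were called with genotype in some lists, several of them at about the share of all genes (15.6% higher and 16.0% lower in Ex3aERKO, 19.8% and 22.4% in ERaUtcKO), and their part in the members' differences was not tested. Epithelial markers, with Msx2, had 7 higher and 2 lower of 14 in Ex3aERKO and 3 and 8 in ERaUtcKO, and their mean level under vehicle was 8.82 to 9.07 in Ex3aERKO littermates and 9.71 to 9.81 in knockouts, while in ERaUtcKO the ranges overlapped (8.95 to 9.31 against 9.03 to 9.51). Gland markers, with Cxcl15, had 1 higher and 3 lower of 7 in each line, and their mean level in treated arrays was 6.72 to 7.60 in Ex3aERKO littermates and 6.45 to 6.70 in knockouts, with overlapping ranges in ERaUtcKO (7.20 to 7.80 against 6.38 to 7.27). Macrophage markers, with Lyz2, had 1 higher and 7 lower of 12, and 1 and 5, with mean levels in treated arrays of 7.73 to 8.50 against 7.19 to 7.91 in Ex3aERKO and of 8.35 to 9.13 against 7.73 to 9.32 in ERaUtcKO, overlapping in both lines. B cell and plasma cell markers, with Jchain, had mean levels of 6.31 to 6.97 against 5.84 to 6.61 in treated Ex3aERKO arrays and of 6.71 to 7.42 against 6.30 to 7.91 in ERaUtcKO. Mast cell markers, with Hdc, had 1 higher and 1 lower of 9, and 2 and 1. In the Ex3aERKO set the other lists gave, as higher and lower of those measured, stroma 4 and 3 of 11, smooth muscle 0 and 6 of 12, endothelium 0 and 2 of 9, lymphatic vessel 0 and 4 of 6, neutrophil and eosinophil 0 and 2 of 10, T and NK cell 2 and 2 of 12, dendritic cell 0 and 0 of 8, adipocyte 4 and 0 of 8, nerve 4 and 0 of 7, mesothelium 2 and 1 of 6, ovary 1 and 0 of 8, blood and liver 2 and 1 of 5 and skeletal muscle 1 and 1 of 8. In ERaUtcKO the same lists gave 3 and 1, 1 and 4, 3 and 0, 0 and 1, 3 and 1, 3 and 2, 4 and 0, 0 and 0, 2 and 0, 2 and 0, 4 and 0, 3 and 0 and 2 and 2.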

How the data were processed

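Whole-uterus RNA from 68 samples was hybridised one sample an array. Per the labels' protocols, RNA was extracted with Trizol and cleaned with the Qiagen RNeasy kit and DNase, and 300 ng was labelled with the Affymetrix WT Plus kit. The authors deposited normalized log2 values for 72688 probe sets in 1 table. Neither the labels nor the file header name the normalization. The members and gene lists were chosen with earlier results of these data known.

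Of 32750 annotated probe sets 30604 had 1 gene symbol and 2146 had several, which were left out with the 39938 outside the annotation. Symbols were updated through RefSeq tables (22818 by Entrez number, 7476 by symbol, 310 kept as given), and where a gene had several probe sets, as 355 did, the one with the highest mean was kept, leaving 30142 genes. No filter on level was used. limma 3.58.1 in R 4.3.3 was run with lmFit and eBayes on 21 treated arrays of Ex3aERKO, 23 of ERaUtcKO, 44 of both lines and 14 of C57, with vehicle arrays of the knockout lines left out. These gave 19 comparisons. On simulated data the fits recovered 73.1% of genes changed by 1 log2 unit for Ex3aERKO at E2 2 h, 97% for ERaUtcKO at E2 2 h, 94% for the contrast of the lines and 92.5% for C57 at E2 2 h. For changes of 0.5 the shares were 23.9%, 53.7%, 71.6% and 62.7% in the same order. Few genes were changed in the simulation and its noise was independent between genes, so recovery in the real comparisons may differ. No comparison of IGF1 groups alone was simulated.

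Named genes were the 12 members of each direction with the largest smaller vehicle difference, the top 3 called members by size of each hormone contrast, line contrast and C57 response direction, members in the gene lists, and Esr1. Members named beyond this rule were chosen after their values were seen. Alternatives were centred array medians, quantile normalization, thresholds of 0.5 and 1.5, protein-coding members alone, a replicate block, all wild types in one fit, vehicle arrays kept in the fit, dim genes left out, the mean of probe sets, and each array left out in turn. The fits of all wild types and with vehicle arrays kept hold arrays that chose the members and are no independent test. The number of arrays limits the precision.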

Additional observations from a re-analysis of the deposited data

Results flagged for a closer look

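Genotype differences that depended on the hormone were tested by the contrast of E2 and IGF1 at one time. At 2 h in Ex3aERKO the members with the largest called contrasts were Cldn1 (5.19), Ighv1-5 (4.98) and Ptch1 (4.68). The Ighv1-5 value, an immunoglobulin segment, had an adjusted p of 0.043 and was not called without any 1 of 7 single arrays (limma with Benjamini-Hochberg adjustment, adjusted p from 0.063 to 0.12). At 24 h in Ex3aERKO they were Inmt (6.38), Hpgds (6.52) and Tgfbi (5.68). In ERaUtcKO they were Cldn1 (4.55), Ptch1 (4.60) and Twist2 (-3.60) at 2 h, and Inmt (5.48), Hpgds (5.02) and Dio2 (-4.95) at 24 h. The genotype difference of treated arrays itself differed between Ex3aERKO and ERaUtcKO for Efhd1 (1.46), S100g (2.18) and Rxfp1 (-1.67).

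Probe sets outside the one-symbol genes also met the vehicle limits in both lines. Of the 2146 probe sets with several symbols 7 lay in the up direction and 10 in the down direction, among them pairs of immunoglobulin segments and the probe set of H19 and Mir675 (1.48 in Ex3aERKO and 2.66 in ERaUtcKO). Of the 39938 probe sets outside the annotation, the 33206 whose identifiers begin with TC or TSU were counted, and 87 of these lay up and 38 down. They are unnamed here, and no test was made on them.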

How the results depend on the processing

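No difference called for a gene named by the rule changed direction under any alternative run, though the call was lost in 433 such checks. Differences that were not called could change sign. That of Ighm in Ex3aERKO ran from -0.06 to 0.39 with single arrays left out. Counts that moved by over 1.5 times came from 3 sources. Thresholds of 1.5 and 0.5 log2 units gave 18 up and 78 down members, and 359 and 477. With all 42 wild-type arrays in one fit, 8, 11, 10 and 12 up members rose at E2 2 h, E2 24 h, IGF1 2 h and IGF1 24 h, and 8 down members rose and 26 fell at IGF1 2 h; that fit holds littermate vehicle arrays that chose the members, so its counts support nothing. Leaving out single arrays gave, at IGF1 2 h, 20 to 49 up and 18 to 74 down calls in Ex3aERKO, 34 to 50 and 37 to 59 in ERaUtcKO, and 2 to 5 rising up members in C57; the cause was not tested. Over the mean of the treatments the ranges were 67 to 69 and 117 to 125 in Ex3aERKO, and 68 and 124 to 140 in ERaUtcKO. Deviations of same-numbered arrays had median correlations from -0.142 to 0.00499. Single pairs ran from -0.591 to 0.498 in C57 and from -0.285 to 0.41 in Ex3aERKO. With 2 or 3 arrays a group these values cannot decide whether the numbers pair the samples. With the replicate block 68 up and 124 down members were called in Ex3aERKO and 68 and 137 in ERaUtcKO. Levels near the antigenomic medians limit what a lower value can show.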
